A study of Arabidopsis thaliana with 30 samples.

Results

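The auxin genes described here are the 16 probe sets of the Affymetrix ATH1 array that name 1 gene with a symbol of an auxin family in the platform annotation, out of 13513 probe sets that name 1 gene. They were chosen by symbol alone, whatever their signal. They are 7 Aux/IAA genes (IAA18, IAA20, IAA29, IAA30, IAA31, IAA33 and IAA34), 4 GH3 genes (GH3.1, GH3.3, GH3.9 and GH3.17), 4 YUC genes (YUC2, YUC4, YUC6 and YUC11) and ILR3. The symbol search also covered response factors, small auxin-up RNAs, transporters and receptors, but it matched none of them among the annotated probe sets, so those families are not analysed here. ILR3, which the search took for a member of the amidohydrolase family, encodes a basic helix-loop-helix protein known from iron homeostasis.

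Leaf RNA came from Arabidopsis thaliana at an age of 21 days, either after 1 h of high light at 1000 µE or untreated, under 16 h of light and 8 h of dark. The plants carried a WRKY40 knockout (Atwrky40 KO), WRKY40 overexpression (Atwrky40.4 OE), a WRKY63 knockout (Atwrky63 KO) or WRKY63 overexpression (Atwrky63.3 OE), or were the Columbia wild type, Col0. Each of the 5 genotypes was measured on 3 arrays in each light, which gives 30 arrays in 10 groups. WRKY40 and WRKY63 encode DNA-binding transcription factors. Each genotype other than Col0 is represented by 1 line, and the labels give neither the alleles nor the promoter behind the overexpression. No probe set used here names WRKY40 or WRKY63, so the lines were not checked by those transcripts and rest on their labels. The submitters name WRKY60 in the design text but WRKY63 on each sample, and the sample names are used. Nothing states that replicates came from separate plants, so p-values refer to the spread between these arrays only, and that spread may be technical.

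Auxin (indole-3-acetic acid) is made in leaves mainly through the YUC flavin monooxygenases, which carry out the last step of its synthesis. It brings Aux/IAA proteins to the TIR1/AFB receptors, which leads to their degradation and releases the auxin response factors that they hold in check. GH3 enzymes join auxin or related acids to amino acids, which stores or inactivates the hormone. Several Aux/IAA and GH3 genes are themselves switched on by auxin, and several genes of the pathway are known to respond to light and shade.

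The leaf markers that the annotation names, 2 of 7, were bright on every array, with signals of 23461 to 38076 for the Rubisco activase gene RCA and of 9337 to 27537 for the antenna gene LHCB4.2. The only named root marker of 4, PYK10, gave 74.1 to 807, and the flower and dividing-cell markers were not named. Median signals over all probe sets were 148.2 to 164.8 on high-light arrays and 168.9 to 187.2 on untreated arrays. The actin 3' to 5' ratio (log2), a measure of RNA integrity, had a median of 1.65 and was highest on Col0 untreated replicate 2 (2.35) and WRKY63 OE high-light replicate 3 (2.32). In whole leaves, fewer cells of a type and less RNA per cell cannot be told apart.

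Under high light GH3.3 rose in Col0 and 3 of the lines, IAA29 fell in Col0 and 3 of the lines, and GH3.9 fell in Col0 and 2 of the lines. IAA18 and YUC2 fell by less, in 2 lines each, and IAA30, GH3.17 and ILR3 were not called. A probe set was called when limma's Benjamini-Hochberg adjusted p was under 0.05 over the 15922 probe sets that passed the filter on dim signals, and 8 of the 16 auxin genes passed it. In Col0, 3 of these 8 were called (1 higher, 2 lower), where 43.9% of all tested probe sets were called (14.9% higher, 29% lower). The counts in the lines were 3 in WRKY40 KO (background 43.3%), 1 in WRKY40 OE (40.9%), 4 in WRKY63 KO (46.5%) and 4 in WRKY63 OE (51.2%). Shares of the members called were thus close to or below the background, and the genes are described below for their own values. Over the 5 genotypes together, a comparison added after seeing the data, 5 of the 8 were called (1 higher, 4 lower; background 72.2%). The median log2 change of the 8 was between -0.37 (WRKY40 KO) and -0.07 (WRKY40 OE), and that of all tested probe sets was between -0.25 (WRKY63 OE) and -0.17 (WRKY40 OE). Quantile normalization brought the median of all tested probe sets to between -0.12 and -0.08.

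**Figure D1:**
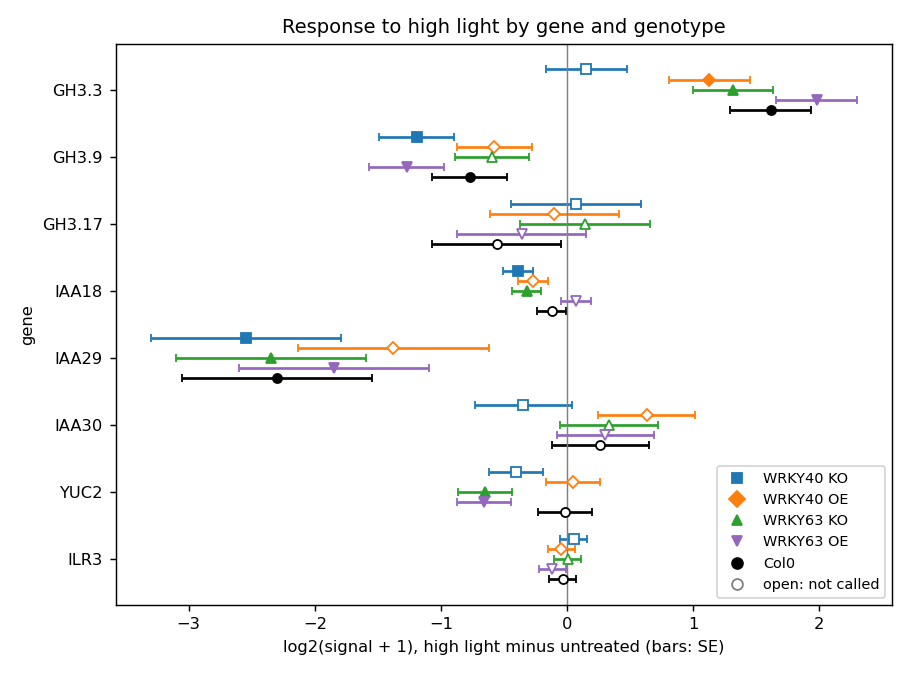
Log2 change of signal + 1 (horizontal axis), high light minus untreated, for the 8 auxin genes that passed the filter, in each of the 5 genotypes, with limma's standard errors as bars and open symbols for changes not called. GH3.3 lies above 0 and IAA29 and GH3.9 lie below 0 in each genotype, with GH3.3 in WRKY40 KO close to 0 at 0.15.

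IAA29, an Aux/IAA gene known to respond to shade and auxin, had the largest fall under high light among the 8 in each genotype, though it did not pass the test in WRKY40 OE. In Col0 its signal was 45.0, 60.1 and 45.8 after high light, against 212, 188 and 392 untreated. In WRKY40 KO it was 8.25, 37.3 and 54.6 after high light, against 89.3, 337 and 127 untreated. In these genotypes every high-light array lay below every untreated array. In WRKY63 KO the signal was 67.4, 51.4 and 61.9 after high light, against 293, 362 and 277 untreated. In WRKY63 OE it was 97.8, 90.5 and 91.5 after high light, against 304, 430 and 295 untreated. The groups were again separate in both WRKY63 lines. The log2 change was -2.30 ± 0.75 (limma's SE) in Col0 (adjusted p = 0.0152), -2.55 in WRKY40 KO (adjusted p = 0.0079), -2.35 in WRKY63 KO (adjusted p = 0.0126) and -1.85 in WRKY63 OE (adjusted p = 0.0434). The Col0 call was lost without untreated replicate 3 (-1.98, adjusted p = 0.0687), and the WRKY40 KO call without untreated replicate 2 (-1.99, adjusted p = 0.0597) or high-light replicate 1 (-1.77, adjusted p = 0.0756). The WRKY63 OE call was lost without any of its 6 arrays, with values between -1.94 and -1.67 and adjusted p between 0.0678 and 0.117, under quantile normalization (-1.59, adjusted p = 0.0775) and with no filter on dim signals (adjusted p = 0.0581). Over the 5 genotypes the fall was -2.08 ± 0.34 (adjusted p = 4.73e-06), and it was called in each of 30 repeats that left out 1 array.

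WRKY40 OE stood apart in IAA29. Its signals were 50.5, 2.94 and 2.15 after high light and 7.63, 57.2 and 21.3 untreated, so the lights overlapped. The high-light change of -1.38 did not pass the test (adjusted p = 0.15), although it was called without untreated replicate 1 (-2.06, adjusted p = 0.0469) or high-light replicate 1 (-2.67, adjusted p = 0.00146). It stayed uncalled in 4 of 6 repeats without 1 array, with -0.65 the smallest in size (adjusted p up to 0.57). The difference between the responses of WRKY40 OE and Col0 was 0.93 ± 1.07 (adjusted p = 0.918). The response to high light was thus not shown to differ from that of Col0. In untreated leaves the WRKY40 OE arrays lay below all 3 Col0 arrays, with means of 28.7 ± 25.6 in WRKY40 OE and 264 ± 111 in Col0 (SD, n = 3 each). IAA29 was lower in WRKY40 OE there by a log2 difference of -3.49 ± 0.75 (adjusted p = 0.00838), which shrank to -2.80 without WRKY40 OE untreated replicate 1 (adjusted p = 0.0637). After high light the difference was -2.56 (adjusted p = 0.0678), where the high-light replicate 1 of WRKY40 OE overlapped Col0. Without that array the difference was -3.85 (adjusted p = 0.000712), and under quantile normalization it was -2.74 (adjusted p = 0.0468). It stayed uncalled in 5 of 6 repeats without 1 array, with -1.84 the smallest in size (adjusted p up to 0.301). Averaged over both lights, a comparison added after seeing the data, IAA29 was lower in WRKY40 OE by -3.02 ± 0.53 (adjusted p = 0.000619), and this was called in 12 of 12 repeats without 1 array. With signals this low the size depends on the pseudocount: with 16 in place of 1, the differences were -2.73 untreated, -1.22 after high light and -1.97 over both lights, and the high-light change in WRKY40 OE was -0.50.

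**Figure D2:**
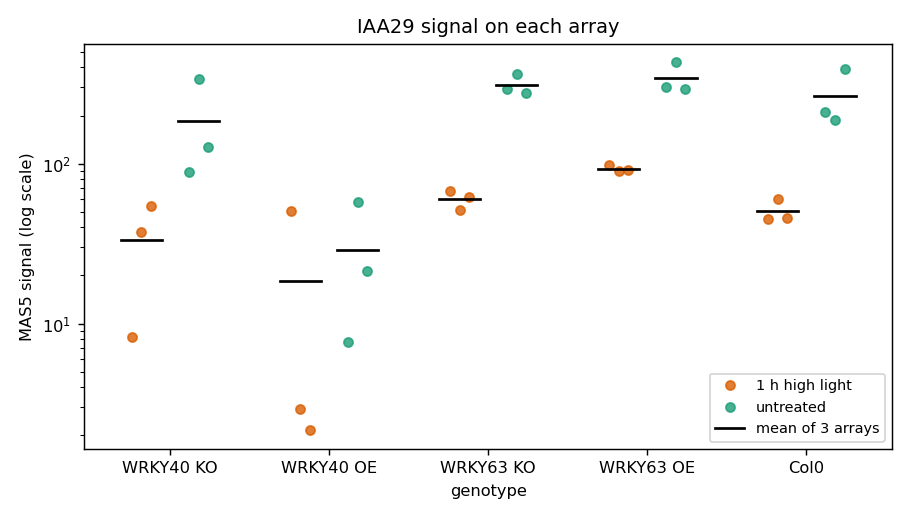
Signal of IAA29 on each array (points, log scale) by genotype, with high light left of untreated and the group mean as a bar. The untreated WRKY40 OE arrays, at 7.63 to 57.2, lie below the untreated arrays of Col0, at 188 to 392.

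IAA18, an Aux/IAA repressor, was lowest in WRKY40 KO. After high light its signals were 284, 301 and 276 in WRKY40 KO, against 406, 416 and 472 in Col0. The log2 difference was -0.58 ± 0.12 (adjusted p = 0.000894), and it was called in each of 6 repeats without 1 array. In untreated leaves the signals were 386, 406 and 339 in WRKY40 KO, against 419, 500.5 and 489.6 in Col0, and here too the arrays did not overlap. That difference of -0.32 did not pass the test (adjusted p = 0.0749), but it did under quantile normalization (-0.36, adjusted p = 0.0387) and without Col0 untreated replicate 1 (-0.40, adjusted p = 0.0446). It stayed uncalled in 5 of 6 repeats without 1 array, with -0.24 the smallest in size (adjusted p up to 0.253). Over both lights IAA18 was lower in WRKY40 KO by -0.45 ± 0.08 (adjusted p = 2e-04). High light lowered IAA18 within WRKY40 KO by -0.39 ± 0.12 (adjusted p = 0.00924) and within WRKY63 KO by -0.32 (adjusted p = 0.0277), where the signals were 484, 448 and 438 after high light, against 554, 578 and 578 untreated. In a fit of only the arrays compared the WRKY40 KO call was lost (adjusted p = 0.0525). Quantile normalization ended both calls, at -0.23 for WRKY40 KO (adjusted p = 0.122) and -0.16 for WRKY63 KO (adjusted p = 0.305). The WRKY63 KO call was also lost without untreated replicate 2 (adjusted p = 0.0693) or 3 (adjusted p = 0.0677), or without high-light replicate 2 (adjusted p = 0.0717) or 3 (adjusted p = 0.0846). High light changed IAA18 by -0.12 in Col0, -0.27 in WRKY40 OE (adjusted p = 0.0707) and 0.07 in WRKY63 OE, none of them called. The interactions of WRKY40 KO (adjusted p = 0.577) and WRKY63 KO (adjusted p = 0.78) were not called, so these responses were not shown to differ from that of Col0. Averaged over genotypes the change was -0.21 ± 0.05 (adjusted p = 0.00111), and -0.07 under quantile normalization (adjusted p = 0.23). The median of all tested probe sets in that average was -0.20 without quantile normalization.

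IAA30, which like IAA20, IAA33 and IAA34 lacks the conserved degron of the family, lay just inside the filter, with 30.7 to 103 after high light (median 55.9) and 23.9 to 69.1 untreated (median 47.4). It was called in none of the 22 comparisons run, and its change over the 5 genotypes had a 95% interval of -0.12 to 0.59 on the log2 scale. IAA34 was the nearest gene outside the filter, whose signal limit was 46.7.

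Among the conjugating enzymes, GH3.3, known to be induced by auxin, rose under high light. Its signals were 359, 446 and 420 after high light in Col0, against 103, 231 and 96.5 untreated. In WRKY63 OE they were 456, 299.8 and 627 after high light, against 127, 139 and 77.3 untreated. The groups did not overlap in either genotype. In WRKY63 KO they were 256, 222 and 194 after high light, against 103, 63.29 and 107 untreated. In WRKY40 OE they were 269, 219 and 260 after high light, against 166, 117 and 74.3 untreated. These groups were separate too, so each high-light array of these 4 genotypes lay above each untreated array of the same genotype. The log2 change was 1.62 ± 0.32 in Col0 (adjusted p = 2e-04), 1.98 in WRKY63 OE (adjusted p = 1.3e-05), 1.32 in WRKY63 KO (adjusted p = 0.00145) and 1.13 in WRKY40 OE (adjusted p = 0.00619). Leaving out WRKY40 OE untreated replicate 3 ended the call in that line (0.83, adjusted p = 0.0585). Over the 5 genotypes the rise was 1.24 ± 0.14 (adjusted p = 2.08e-08).

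WRKY40 KO was the exception in GH3.3. Its signals were 233, 329 and 180.3 after high light, against 222, 233 and 194 untreated, so the lights overlapped. The log2 change was 0.15 (adjusted p = 0.727), and -0.07 without high-light replicate 2. GH3.3 in WRKY40 KO thus lay above the Col0 mean in untreated leaves (216 ± 20.3 in WRKY40 KO, 144 ± 75.9 in Col0) and below it after high light (248 ± 75.6 in WRKY40 KO, 408 ± 44.8 in Col0; SD, n = 3 each). Neither difference passed the test, with 0.70 untreated (adjusted p = 0.154) and -0.76 after high light (adjusted p = 0.117, and 0.0455 in a fit of only the arrays compared). The test of the difference between the responses of WRKY40 KO and Col0, the interaction, gave -1.46 ± 0.45 (adjusted p = 0.156, unadjusted p = 0.00347). Col0 untreated replicate 2, at 231, was the array with the highest actin ratio, and it lay within the WRKY40 KO range. Without it the untreated difference was 1.11 (adjusted p = 0.0229) and the interaction was -1.86 (adjusted p = 0.0351). In repeats without 1 array the untreated difference stayed uncalled in 5 of 6, with 0.48 the smallest (adjusted p up to 0.434). The interaction stayed uncalled in 11 of 12, with -1.24 the smallest in size (adjusted p up to 0.324). The part of RNA integrity in the value of Col0 untreated replicate 2 was not tested.

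**Figure D3:**
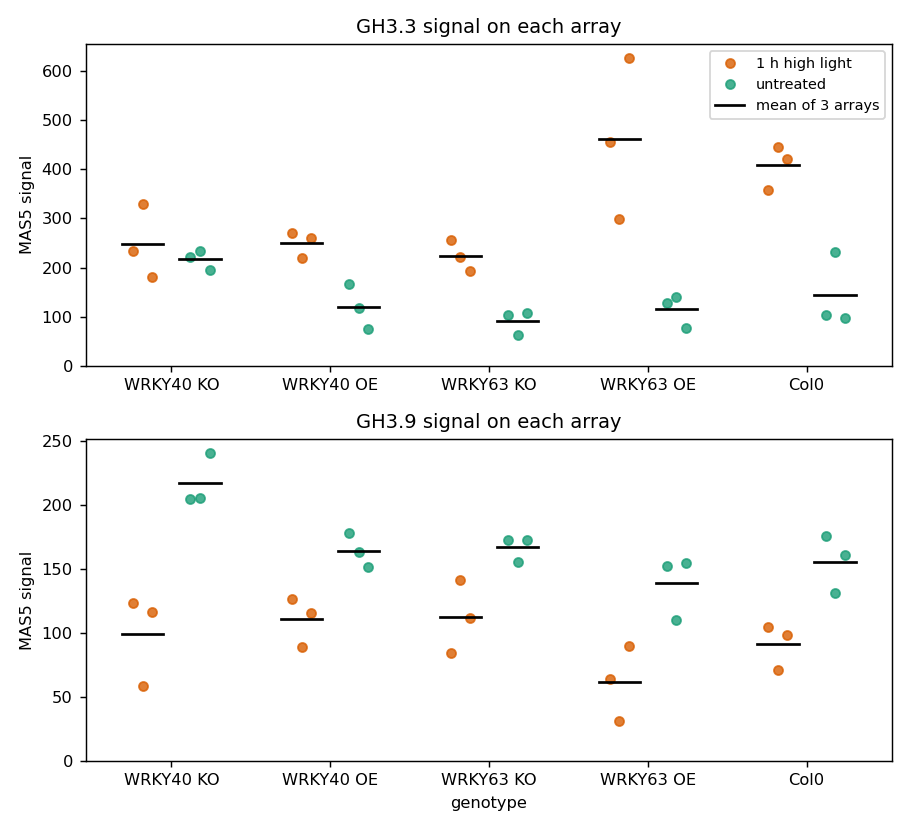
Signals of GH3.3 and GH3.9 on each array (points) by genotype, with high light left of untreated and the group mean as a bar. The mean of GH3.3 is higher after high light in each genotype, though in WRKY40 KO the arrays overlap. The mean of GH3.9 is lower after high light in each genotype.

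GH3.9, a member known from root growth, moved the other way. Its signals were 105, 70.9 and 98.3 after high light in Col0, against 176, 131 and 160.3 untreated. In WRKY40 KO they were 123, 58.1 and 116 after high light, against 204, 205 and 241 untreated. In WRKY63 OE they were 63.9, 31.0 and 89.3 after high light, against 152, 109.7 and 155 untreated. High-light arrays lay below the untreated arrays of the same genotype in these 3 genotypes, as they did in the other two. The log2 changes were -0.77 ± 0.30 (adjusted p = 0.0364) in Col0, -1.19 (adjusted p = 0.00192) in WRKY40 KO and -1.27 (adjusted p = 0.000849) in WRKY63 OE. The Col0 call was lost without untreated replicate 1 (adjusted p = 0.113) or 3 (adjusted p = 0.0851), without high-light replicate 2 (-0.60, adjusted p = 0.158) or 3 (adjusted p = 0.0529), under quantile normalization (-0.56, adjusted p = 0.149) and with no filter on dim signals (adjusted p = 0.057). The means were 110.4 ± 19.4 after high light and 164 ± 13.3 untreated in WRKY40 OE, and 112 ± 28.3 after high light and 167 ± 9.62 untreated in WRKY63 KO (SD, n = 3 each). Neither change was called there, at -0.58 in WRKY40 OE (adjusted p = 0.124) and -0.59 in WRKY63 KO (adjusted p = 0.103). In the average over genotypes GH3.9 fell by 0.88 ± 0.13 on the log2 scale (adjusted p = 1.55e-06). GH3.17, which joins auxin to glutamate, had 34.5 to 141 after high light (median 63.1) and 14.8 to 102 untreated (median 79.1), and was called in none of the 22 comparisons. GH3.1 did not pass the filter.

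Of the synthesis genes, YUC2 was the only one to pass the filter. Its signals were 107, 72.7 and 79.4 after high light in WRKY63 KO, against 138, 112 and 157 untreated. In WRKY63 OE they were 107, 95.2 and 100.5 after high light, against 167, 146 and 167 untreated. In both lines the groups were separate, with log2 changes of -0.65 ± 0.21 (adjusted p = 0.0149) in WRKY63 KO and -0.66 (adjusted p = 0.0121) in WRKY63 OE. In WRKY40 KO the groups were separate too, with 121, 114 and 117 after high light, against 124, 204 and 149 untreated, but the change of -0.41 was not called (adjusted p = 0.129). In Col0 the signals were 161, 118 and 116 after high light, against 122, 122 and 153 untreated, which overlap. The Col0 change was -0.02 (adjusted p = 0.955). In WRKY40 OE it was 0.04 (adjusted p = 0.891), with means of 155 after high light and 151 untreated. The interactions of YUC2 were not called in any line (smallest adjusted p = 0.396), so the lines' responses were not shown to differ from that of Col0. Under quantile normalization the changes were -0.33 in WRKY63 KO (adjusted p = 0.186) and -0.39 in WRKY63 OE (adjusted p = 0.109), and that of WRKY63 KO was also lost without untreated replicate 3 (adjusted p = 0.0767), high-light replicate 2 (adjusted p = 0.077) or high-light replicate 3 (adjusted p = 0.0509). Across genotypes YUC2 changed by -0.34 ± 0.10 (adjusted p = 0.00277), and by -0.11 under quantile normalization (adjusted p = 0.292).

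**Figure D4:**
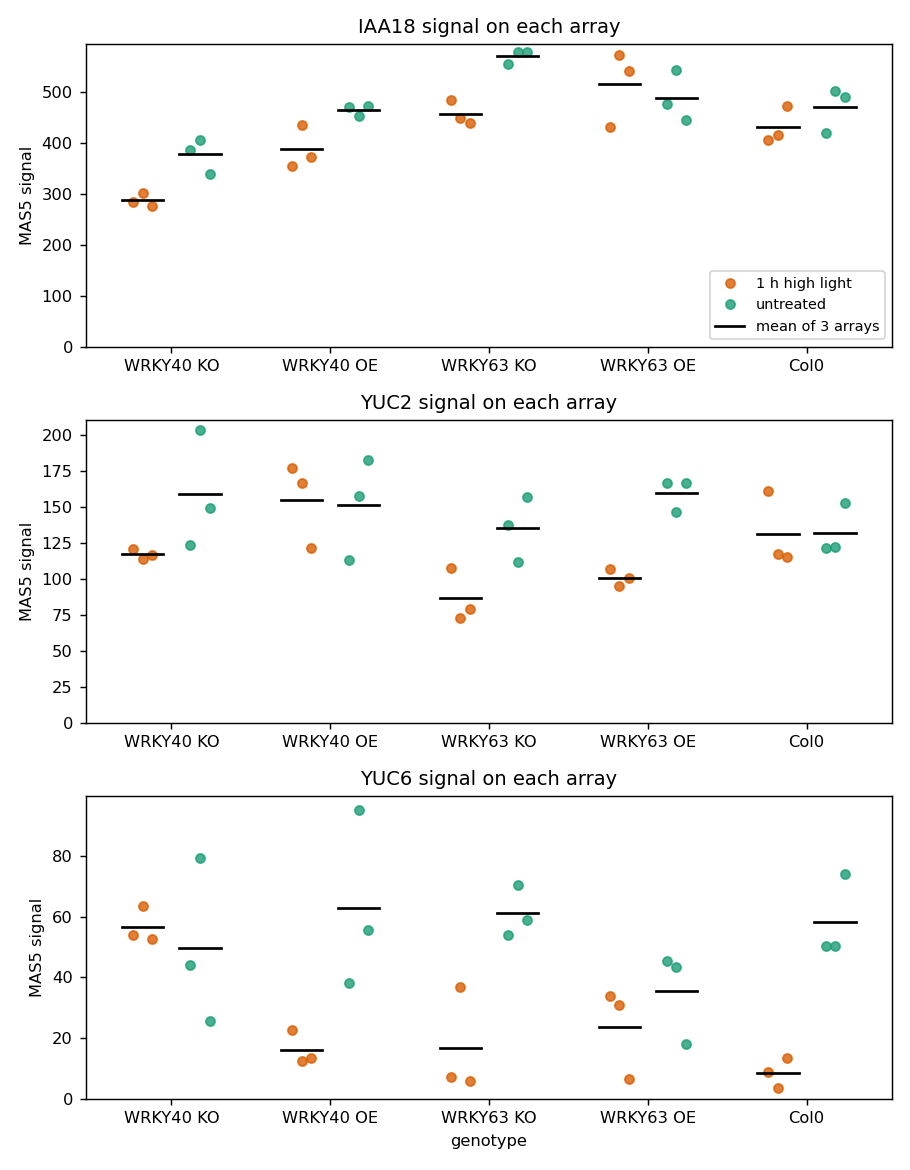
Signals of IAA18, YUC2 and YUC6 on each array (points) by genotype, with high light left of untreated and the group mean as a bar. IAA18 is lowest in WRKY40 KO after high light (276 to 301), and YUC6 after high light is highest in WRKY40 KO (52.8 to 63.6).

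The other 8 auxin genes were dim, and they were fitted without the filter over 22746 probe sets after their values had been seen. YUC6 was the one with the most calls. Its signals were 8.88, 3.46 and 13.4 after high light in Col0, against 50.4, 50.5 and 74.0 untreated. In WRKY63 KO they were 7.13, 37.0 and 5.97 after high light, against 54.0, 70.6 and 59.0 untreated. In both genotypes the groups were separate, with log2 changes of -2.77 ± 0.62 in Col0 (adjusted p = 0.00107; 30.3% of all probe sets called) and -2.26 in WRKY63 KO (adjusted p = 0.00589; 32.1%). In WRKY40 OE the signals were 22.8, 12.5 and 13.4 after high light, against 38.2, 95.2 and 55.5 untreated. The groups were separate and the change was -1.84 (adjusted p = 0.0276; 27.7%). Its call was lost without untreated replicate 2 (-1.50, adjusted p = 0.129) or 3 (-1.88, adjusted p = 0.0567), or without high-light replicate 2 (-1.69, adjusted p = 0.0902) or 3 (-1.74, adjusted p = 0.0824). In WRKY63 OE they were 34.0, 30.8 and 6.59 after high light, against 45.5, 43.5 and 18.1 untreated, with no call (adjusted p = 0.395; 36.1%). Across the 5 genotypes YUC6 fell by 1.46 ± 0.28 on the log2 scale (adjusted p = 6.26e-05; 54.5%).

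YUC6 did not fall in WRKY40 KO, where its signals were 53.9, 63.6 and 52.8 after high light, against 44.0, 79.3 and 25.7 untreated (0.33, adjusted p = 0.756; 29.8% called). After high light each WRKY40 KO array lay above each Col0 array, and YUC6 was higher in WRKY40 KO by 2.75 ± 0.62 (adjusted p = 0.00372; 10.2%). The interaction was 3.09 ± 0.88 (adjusted p = 0.136, unadjusted p = 0.00169; 0.659%), so the response was not shown to differ. With a pseudocount of 16 the changes were -1.60 in Col0, -1.36 in WRKY63 KO and -1.24 in WRKY40 OE, and the WRKY40 KO difference after high light was 1.58.

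Calls in a single genotype without the filter were found for YUC4 in WRKY40 KO, with 51.7, 27.8 and 27.2 after high light, against 9.67, 3.96 and 7.41 untreated (2.20, adjusted p = 0.032), and for IAA34 in WRKY63 KO, with 40.0, 2.71 and 24.1 after high light, against 58.0, 55.8 and 48.5 untreated (-1.81, adjusted p = 0.0177). The YUC4 call was lost without any 1 of 5 of its 6 arrays (adjusted p between 0.0504 and 0.12), and the IAA34 call without high-light replicate 2 (-0.78, adjusted p = 0.253) or in a fit of only the arrays compared (adjusted p = 0.119). GH3.1, IAA20, IAA31, IAA33 and YUC11 were called in none of the 22 comparisons, and their signals did not exceed 81.4 on any array. ILR3 was called in none of the 22 comparisons either. It had 1269 to 1659.5 after high light (median 1460.4) and 1274 to 1769 untreated (median 1447), and its change over the 5 genotypes had a 95% interval of -0.13 to 0.07.

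Set against Col0, at most 1 of the 8 genes that passed the filter was called in each comparison. With 8 genes tested and the background shares given here, nothing about the auxin genes is read from these counts. In untreated leaves 1 was called in WRKY40 OE, which is IAA29 (background 2.45%). None was called by limma in WRKY40 KO (background 14.3%, 3 with an unadjusted limma p under 0.05), WRKY63 KO (0.502%, 1) or WRKY63 OE (4.26%, 0). After high light 1 was called in WRKY40 KO, which is IAA18 (15.2%). None was called in WRKY40 OE (2.44%, 2 with an unadjusted p under 0.05), WRKY63 KO (0.0251%, 2) or WRKY63 OE (10.2%, 2). No interaction was called in WRKY40 KO (1.03%, 1 unadjusted), WRKY40 OE (0.22%, 0), WRKY63 KO (0.113%, 1) or WRKY63 OE (0.415%, 1). Over both lights, 1 was called in WRKY40 KO (24.9%), 1 in WRKY40 OE (5.38%), and none in WRKY63 KO (0.245%, 2 unadjusted) or WRKY63 OE (13.5%, 0). Comparisons with Col0 in the same light share its 3 arrays.

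Of a list of 82 further symbols of auxin synthesis, transport and response, 5 matched a probe set that names 1 gene in the platform annotation. Of these, 3 passed the filter. Whether the array measures the other genes under another symbol or none was not checked. The 5 were HAT2, LBD16, LBD29, WAG2 and WES1. High light called 0 higher and 1 lower in Col0, in WRKY40 KO and in WRKY40 OE, 0 higher and 2 lower in WRKY63 KO, and 1 higher and 0 lower in WRKY63 OE. With 3 genes tested and 40.9% to 51.2% of all tested probe sets called in these comparisons, nothing is read from these counts. HAT2, an auxin-inducible homeodomain gene, fell under high light in 4 genotypes. In Col0 its mean was 294 ± 63.6 after high light and 452 ± 81.5 untreated (SD, n = 3 each, here and below). In WRKY40 KO it was 201 ± 8.57 after high light and 446 ± 56.4 untreated. In WRKY40 OE it was 217 ± 58.9 after high light and 369 ± 73.0 untreated. These groups were separate in each of the 3 genotypes. In WRKY63 KO the mean was 283 ± 65.9 after high light and 573 ± 48.0 untreated, and the groups were separate there too. The log2 change was -0.62 in Col0 (adjusted p = 0.0202), -1.14 in WRKY40 KO (adjusted p = 0.000112), -0.77 in WRKY40 OE (adjusted p = 0.00508) and -1.04 in WRKY63 KO (adjusted p = 0.000284). WRKY63 OE gave -0.09 (adjusted p = 0.755), with 276 ± 69.4 after high light and 289 ± 38.7 untreated. Its untreated arrays all lay below those of Col0, but this difference was not called (-0.64, adjusted p = 0.096). The Col0 call was lost without untreated replicate 3 (-0.49), high-light replicate 2 (-0.54) or high-light replicate 3 (-0.53), and under quantile normalization (-0.48, adjusted p = 0.0627).

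WES1, another name of the conjugating enzyme GH3.5, moved in opposite directions in the WRKY63 lines. Its signals were 185, 222 and 139.9 after high light in WRKY63 KO, against 342, 256 and 273 untreated. In WRKY63 OE they were 189, 289.6 and 289 after high light, against 170.1, 175 and 175 untreated. The groups were separate in both lines. The log2 change was -0.68 ± 0.21 in WRKY63 KO (adjusted p = 0.00972) and 0.53 ± 0.21 in WRKY63 OE (adjusted p = 0.0387). It was 0.03 in Col0, -0.09 in WRKY40 KO and 0.41 in WRKY40 OE, none of them called. Untreated, every WRKY63 KO array lay above every Col0 array, with means of 290 and 179 (0.69, adjusted p = 0.146). After high light the means were 182 in WRKY63 KO and 185 in Col0. The WRKY63 KO call was lost without untreated replicate 1 (-0.56) or high-light replicate 3 (-0.51) and under quantile normalization (-0.42). The WRKY63 OE call was lost without untreated replicate 1, 2 or 3 or high-light replicate 2 or 3, and on the 28 arrays without the 2 highest actin ratios (0.43, adjusted p = 0.139). It was also lost with no filter (adjusted p = 0.0588) and in a fit of only the arrays compared (adjusted p = 0.0663). No gene of this list was called in a comparison with Col0 or in an interaction.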

How the data were processed

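Each probe set has 1 deposited intensity, a MAS5 signal of the authors per the submitters' processing notes, which give no settings. The trimmed mean (2% at each end) was 500.0 to 500.1 on each array. In R 4.3.3, 64 control probe sets of 22810 were left out, a pseudocount of 1 added and log2 taken. Probe sets with a mean at or above the 30th percentile (15922) were fitted with limma 3.58.1 (10 group means, 30 arrays, variance trend). The pseudocount shrinks the changes of dim genes, and a mean of logs can exceed the log ratio of mean signals where arrays differ widely, as for IAA29. Errors are SD for signals and SE for log2 changes; 3 arrays a group limit precision, and no detection calls were used.

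The 17 comparisons of the design and 5 averaged ones added later were adjusted separately. Members and lists were chosen with earlier results of these data known. Named genes were the highest mean signal of each family, called members and IAA29; the dim YUC6, YUC4 and IAA34 and WRKY40 KO's GH3.3 were added after their values were seen. The fit was tested on simulated data. Gene names follow the platform annotation. Levels were not compared between probe sets.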

Additional observations from a re-analysis of the deposited data

Results flagged for a closer look

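WES1 (GH3.5) was called in opposite directions under high light in the WRKY63 lines, with a log2 change of -0.68 in WRKY63 KO and 0.53 in WRKY63 OE. Both calls depended on the arrays and settings. In repeats without 1 array, the WRKY63 OE call held in 1 of 6 and the WRKY63 KO call in 4 of 6. The WRKY63 OE call was also lost with no filter (adjusted p = 0.0588), and the WRKY63 KO call under quantile normalization (-0.42, adjusted p = 0.117). Each WRKY63 KO array after high light lay below each untreated one, and each WRKY63 OE array after high light lay above each untreated one. WRKY63 KO averaged 290 untreated, against 179 in Col0, a difference that was not called. After high light it averaged 182, against 185 in Col0. The difference between these lines was not tested, and neither line differed from Col0 in an interaction that was called.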

How the results depend on the processing

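The arrays were not treated as paired, since the labels state no shared batch. Deviations from the group means correlated at a median of 0.03 between same-numbered arrays of different groups (-0.16 to 0.32, 135 pairs). Between arrays of different number the median was -0.01 (-0.32 to 0.33, 270 pairs). For 22 of 30 arrays, the mean correlation was highest with arrays of their own number in other groups. This is a hint from the data that numbers may share something. With the replicate block, the counts of members called were the same in all 22 comparisons, for example 3 for high light in Col0. The filter at the 50th percentile removed genes and left 1 member called for high light in Col0, 1 in WRKY40 KO, 2 in WRKY63 KO and 1 in WRKY63 OE, 0 for WRKY40 OE against Col0 untreated, 2 over the 5 genotypes and 0 for WRKY40 OE over both lights. With no filter, 16 members and not 8 are counted, and the share of all 22746 probe sets called is given in brackets. High light then called 4 in WRKY40 KO (29.8%), 2 in WRKY40 OE (27.7%) and 6 in WRKY63 KO (32.1%). It called 3 in WRKY63 OE (36.1%) and 6 over the 5 genotypes (54.5%). WRKY40 KO against Col0 after high light had 2 (10.2%). No such share is set beside the other counts of this section, and nothing about the members is read from them. Quantile normalization gave 2 for high light in WRKY63 KO, 2 in WRKY63 OE, 1 for WRKY40 KO untreated and 1 for WRKY40 OE after high light. With only the arrays compared, WRKY40 KO after high light had 2 (GH3.3 and IAA18) and WRKY63 OE over both lights had 1 (IAA29). On 28 arrays, without the 2 highest actin ratios (chosen after seeing the data), WRKY40 KO untreated had 1 and its interaction had 1. With a pseudocount of 16 each count was the same.

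Leaving out 1 array gave 1 to 3 members for high light in Col0, 2 to 3 in WRKY40 KO, 0 to 2 in WRKY40 OE, 2 to 4 in WRKY63 KO, 3 in WRKY63 OE whichever of its arrays was left out, 0 to 1 for WRKY40 KO and for WRKY40 OE untreated, 0 to 1 for WRKY40 OE after high light, 0 to 1 for the interaction of WRKY40 KO and 1 to 2 for WRKY40 KO over both lights. GH3.3 in WRKY40 KO was the only named change that reversed, at -0.073 without WRKY40 KO high-light replicate 2 (range -0.073 to 0.36). Of 480 such refits of single changes, 431 kept direction and call. The cause of these differences was not tested beyond the arrays and genes left out.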
